A study of Mus musculus with 6 samples.

Results

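Type I interferon antiviral effector genes are the genes through which a cell that has sensed interferon blocks the steps of a viral infection. The set described here was a list of 40 gene symbols, each matched to 1 of the 23424 genes in the count tables, and 39 of them were among the 14645 protein-coding genes that could be tested. *Mx2* was the exception, since the annotation files it as a polymorphic pseudogene, and its fitted values come from a fit of genes of every biotype. Their expression was measured by poly-A RNA sequencing of tumor-associated macrophages (TAMs) from melanomas of the mouse line YUMM1.7, grown intradermally in wild-type C57Bl/6J female mice that were 8 weeks old when inoculated and received no treatment. Live CD45+ CD11b+ F4/80+ cells, which were also lineage-negative by the study's methods, were sorted on day 21 into F4/80high TAMs (3 libraries) and F4/80low TAMs (3 libraries), each library from 10 pooled tumors of 1 of 3 independent experiments, so a library averages over tumors and no single animal can be followed. Replicates 1 and 2 of both subsets are batch 1 in the plots of the study and replicate 3 of both is batch 2. The libraries held 30292061, 43604373 and 16045281 counts in F4/80high replicates 1, 2 and 3, and 32967733, 32560608 and 16204810 counts in F4/80low replicates 1, 2 and 3.

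Type I interferons bind a receptor made of IFNAR1 and IFNAR2, and the kinases JAK1 and TYK2 then activate the transcription factor complex ISGF3. ISGF3 binds the interferon-stimulated response element (ISRE) in the promoters of its targets and switches them on together. The products bind viral RNA (IFIT proteins), trigger the decay of RNA (OAS proteins), tag proteins with ISG15, deplete or alter nucleotides (viperin, SAMHD1) and hold virus particles at membranes (IFITM proteins, tetherin). In macrophages these genes are transcribed at a low level without infection and are raised further by interferon made by other cells of a tissue. C57Bl/6J mice, like many laboratory strains, carry a deletion in *Mx1* and make no functional MX1 protein, so its transcript is read here only as a reporter of the pathway.

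To show what these genes share at the level of DNA, the RefSeq promoters (GRCm38.p6, 250 bases before to 50 bases after each start) of the 31 members with a promoter in the table were searched for the ISRE core GAAANNGAAA on both strands. At least 1 match was found in 16 of the 31 members (51.6%), against 3.99% of all 27025 genes in the table. The match was not confined to the members, since it was found in 7 of 13 targets of interferon-gamma (53.8%) and 11 of 28 other interferon-induced genes (39.3%) with a promoter. These matches are of letters only, and overlapping matches on 1 strand were counted separately. The windows below hold the matches nearest the start in 7 members that recur in the results, read 5′ to 3′ on the strand of the gene, with the ISRE match or run of matches in capitals. *Isg15* is shown for 3 matches in 1 run, *Ifit1* and *Ifit3* for 2 separate matches each, *Rsad2* for a single match, *Bst2* as a member with matches whose log2 fold change lay above 0, and *Oas1a* and *Oas1g* as near-identical neighbors.
Isg15, chr4:156200850-156200909, minus strand: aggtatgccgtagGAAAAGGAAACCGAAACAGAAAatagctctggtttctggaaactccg
Ifit1, chr19:34640779-34640838, plus strand: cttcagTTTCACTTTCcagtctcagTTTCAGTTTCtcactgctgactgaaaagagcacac
Ifit3, chr19:34583373-34583441, plus strand: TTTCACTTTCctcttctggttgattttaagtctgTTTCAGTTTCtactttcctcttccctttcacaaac
Rsad2, chr12:26456538-26456597, minus strand: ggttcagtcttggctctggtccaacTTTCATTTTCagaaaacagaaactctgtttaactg
Bst2, chr8:71537562-71537621, minus strand: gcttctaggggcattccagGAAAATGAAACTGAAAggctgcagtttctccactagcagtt
Oas1a, chr5:120907526-120907564, minus strand: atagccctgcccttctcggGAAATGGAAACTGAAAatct
Oas1g, chr5:120887614-120887650, minus strand: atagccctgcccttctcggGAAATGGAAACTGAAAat
The match nearest the start began 66 bases upstream of it in *Isg15*, 85 in *Ifit1*, 122 in *Ifit3*, 120 in *Rsad2* and 124 in *Bst2*. The window shown for *Oas1a* and *Oas1g* ends at the start site, 14 and 12 bases after the match begins.

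The sort was checked first on *Adgre1*, which encodes F4/80. It measured 273, 539 and 360 CPM (counts per 1e6 counts of the normalized library) in F4/80high replicates 1, 2 and 3, and 243, 327 and 183 CPM in the F4/80low ones. Every F4/80high library was above its own F4/80low partner, although replicate 1 of F4/80high TAMs (273 CPM) was under replicate 2 of F4/80low TAMs (327 CPM).

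The question was whether the antiviral effector genes differ between the subsets. In the fit with batch as a term, 37 of the 39 tested members had a log2 fold change below 0, that is, lower in F4/80high TAMs, where 49.2% of all genes tested had one. The median over the members was -0.48, against 0.01 over all genes, and single members ran from -1.15 for *Ifitm1* to 0.45 for *Ifi44*. None was called, and the same holds for all genes (edgeR, adjusted p under 0.05 and absolute log2 fold change above 1, 0.0% called). The adjusted p of the members ran from 0.598 to 0.962 in edgeR. An unadjusted p under 0.05 was reached by 4 members, all lower in F4/80high TAMs, namely *Rsad2*, *Cmpk2*, *Ifitm3* and *Trim25*, while 4.32% of all genes passed the same rule in that direction. DESeq2 with batch gave 0 calls (1.01% of all genes) and 7 members with an unadjusted p under 0.05, all lower (5.34% of all genes). With the replicate number as a block, 16 of the 39 had one, all lower, against 5.95% of all genes. None was called by edgeR with the block, where 0.519% of all genes were, and the lowest adjusted p was 0.0569. DESeq2 with the block called 1 member, *Ifitm1*, where it called 2.42% of all genes. In bulk libraries, fewer cells that express a gene and less of its RNA in each cell cannot be told apart.

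**Figure D1:**
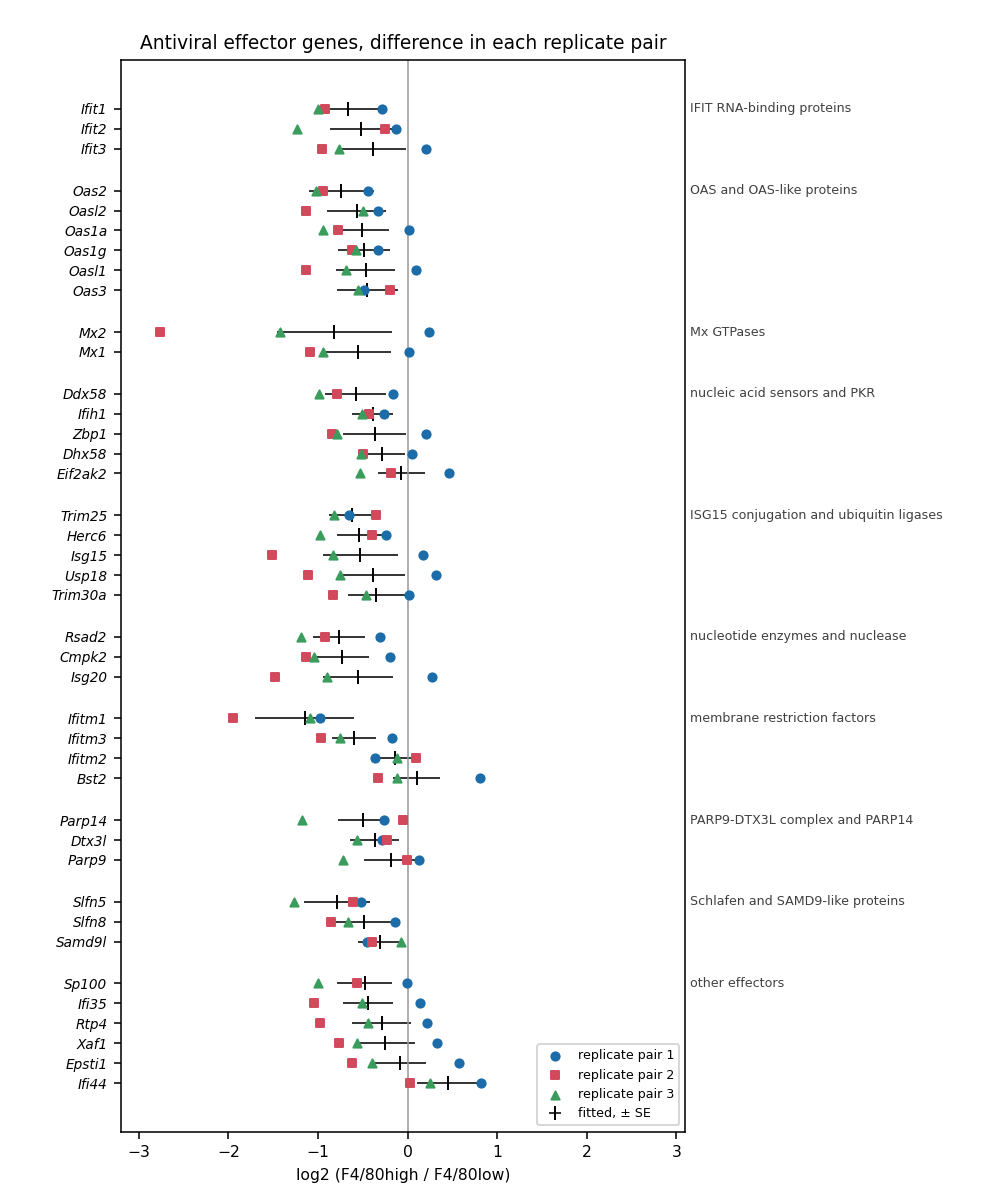
Difference of each effector gene between F4/80high and F4/80low TAMs on the log2 scale, with genes grouped by role. Circles, squares and triangles are replicate pairs 1, 2 and 3, and the black tick with its bar is the fitted log2 fold change ± SE (for *Mx2* from the fit of all biotypes). Most squares and triangles lie left of 0, while the circles of pair 1 lie on both sides of it.

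The experiments did not give the same picture. In pair 1, 21 of the 39 members were lower in F4/80high TAMs (48.2% of all genes), with a median log2 difference of -0.13. In pair 2, 37 were lower (51.0% of all genes), with a median of -0.78. In pair 3, the only pair of batch 2, 38 were lower (46.1% of all genes), with a median of -0.76. The direction was lower in all 3 pairs for 20 members, against 15.9% of all genes, and higher in all 3 pairs for *Ifi44* alone. Every F4/80high library was below every F4/80low library for only *Ifitm3* and *Cmpk2*, that is 2 of 39 members, against 2.9% of all genes.

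**Figure D2:**
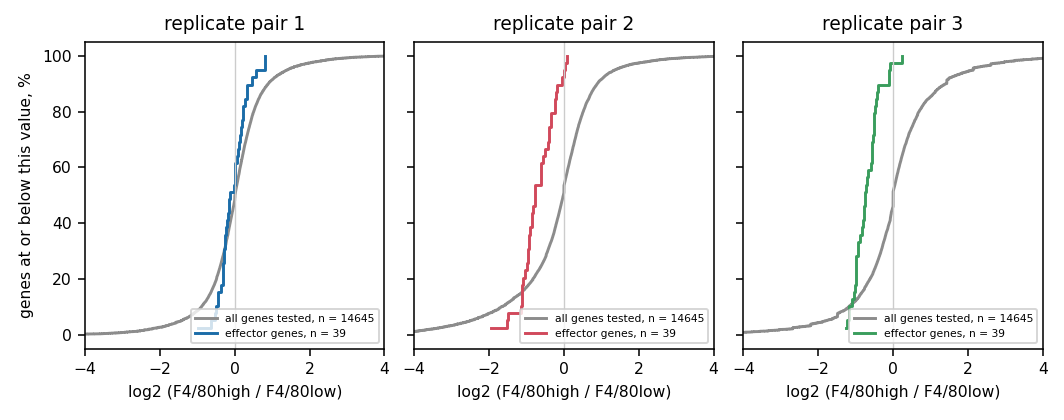
Share of genes at or below each log2 difference between F4/80high and F4/80low TAMs, in percent, for the 39 tested effector genes (colored) and the 14645 genes tested (gray), in each replicate pair. The colored curve runs near the gray one in pair 1, and in pairs 2 and 3 it is shifted to the left, with medians of -0.78 and -0.76.

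Libraries of the same subset also differed. F4/80high replicate 2 was the lowest of all 6 libraries for 36 of the 40 members, and F4/80low replicate 3 was the highest for 33. Within batch 1, F4/80high replicate 2 was the lowest for 37 members, and F4/80high replicate 1 and F4/80low replicate 1 were the highest for 18 and 20. Summed over the 40 members, the level was 4710, 2560 and 9980 CPM in F4/80high replicates 1, 2 and 3 and 5140, 4010 and 16200 CPM in the F4/80low ones. Without F4/80high replicate 1, 29 of the 39 members had an unadjusted p under 0.05, all lower in F4/80high TAMs (7.91% of all genes), and the median log2 fold change was -0.87. Without F4/80high replicate 2 the median was -0.27, and 2 members had such a p, 1 of them lower (4.05% of all genes). Without F4/80low replicate 2 there were 8, all lower (4.69% of all genes). In 4 further fits no member had such a p in either direction. Without F4/80low replicate 1, 598 of the 14645 genes had one, with 2.12% of all genes in the lower direction. Without F4/80high replicate 3 there were 557 such genes (2.62% of all genes lower). Without F4/80low replicate 3 there were 556 (2.53% lower), and within batch 1 there were 560 (2.51% lower). These last 3 fits are not separate checks. The batch term takes up a library left alone in batch 2, so all 3 compare the subsets on the same libraries of batch 1. Of the 18 members picked by rule for full values, 14 moved by over 1.5 times in log2 fold change when some 1 library was left out. Without F4/80high replicate 1, 12 became larger in size by that much, such as *Rtp4* (from -0.29 to -0.80), *Ifit3* (from -0.39 to -0.98), *Trim30a* (from -0.35 to -0.79) and *Mx1* (from -0.56 to -1.15). Without F4/80high replicate 2, 10 became smaller by that much, such as *Rtp4* (-0.03), *Ifit3* (-0.13), *Trim30a* (-0.11) and *Samd9l* (from -0.31 to -0.18). Within batch 1 the median was -0.33, and 34 of the 39 had a log2 fold change below 0.

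**Figure D3:**
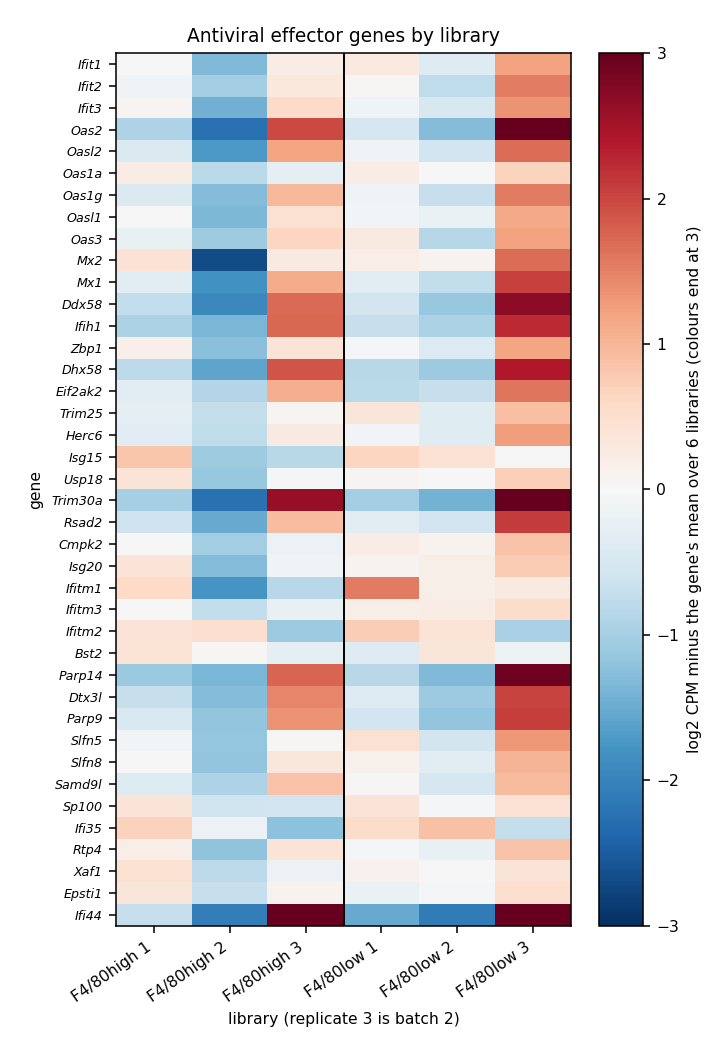
Level of each effector gene in each library, as log2 CPM minus the mean of that gene over the 6 libraries, with red above and blue below that mean and colors ending at 3. F4/80high replicate 2 is the bluest column and F4/80low replicate 3 the reddest, and within each subset the replicate 3 library is above the others for most genes.

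The 3 IFIT genes, of a family of RNA-binding proteins, lie together on chromosome 19 (chr19:34550694-34650009, GRCm38). All had a log2 fold change below 0, with a median of -0.52. *Ifit1*, with the smallest p of them, measured 137, 55.1 and 159 CPM in F4/80high replicates 1, 2 and 3, against 167, 104 and 319 CPM in the F4/80low ones. It was lower in each pair, while the groups overlapped through F4/80high replicates 1 and 3 (log2 fold change -0.67, SE 0.35, edgeR adjusted p = 0.696). *Ifit3*, the most abundant per length, had 139, 48.6 and 196 CPM in F4/80high and 120, 94.5 and 335 CPM in F4/80low TAMs. Here pair 1 ran the other way, and the fit gave -0.39 (SE 0.37, edgeR adjusted p = 0.815). *Ifit3* shares 41.1% of its 75-base runs with its copy *Ifit3b*, so the division of reads between them is uncertain.

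The sensors of viral RNA and DNA comprised *Ifih1* (MDA5), *Ddx58* (RIG-I), *Dhx58* (LGP2), *Zbp1* and *Eif2ak2*, the kinase PKR that halts translation. Some of them also start interferon production. All 5 had a log2 fold change below 0, from -0.58 for *Ddx58* to -0.07 for *Eif2ak2*. *Ifih1* measured 51.3, 37.7 and 324 CPM in F4/80high TAMs and 61.3, 50.9 and 462 CPM in F4/80low TAMs, so that the difference between batches was several times that between subsets. It was lower in all 3 pairs (log2 fold change -0.39, SE 0.23, edgeR adjusted p = 0.699). *Dhx58*, the most abundant per length in batch 2 (*Zbp1* was above it in batch 1), measured 58.3, 33.8 and 376 CPM in F4/80high and 56.4, 47.7 and 539 CPM in F4/80low TAMs (log2 fold change -0.29, SE 0.26, edgeR adjusted p = 0.801). Its pair 1 values were nearly equal.

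The OAS proteins sense double-stranded RNA and make 2′-5′ oligoadenylate, which activates the nuclease RNase L, and the OAS-like proteins are their relatives. All 6 members had a log2 fold change between -0.74 and -0.45, and 4 of them were lower in all 3 pairs. *Oas2* had the smallest p and, averaged over the 6 libraries, the highest level per length, although in batch 1 it lay at 9.85 CPM per kilobase, under *Oas1a* at 43.9. It measured 49.5, 20.05 and 373 CPM in F4/80high and 67.3, 38.6 and 756 CPM in F4/80low TAMs. In each pair the F4/80low library was higher, with log2 differences of -0.44, -0.94 and -1.02. The fitted log2 fold change was -0.74 (SE 0.36, with an edgeR adjusted p of 0.686), and -0.80 with the block, with an adjusted p of 0.161 in edgeR and 0.0187 in DESeq2. *Oas1a* and *Oas1g*, whose start-site windows are printed above, had -0.51 and -0.49, and since they share 47.6% and 44.6% of their 75-base runs with each other, their separate values are uncertain.

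The Mx genes encode GTPases that trap viral nucleocapsids. *Mx1* measured 70.4, 24.9 and 190 CPM in F4/80high and 70.1, 52.8 and 363 CPM in F4/80low TAMs, equal in pair 1 and lower in F4/80high TAMs in pairs 2 and 3. The fit gave a log2 fold change of -0.56 (SE 0.37, edgeR adjusted p = 0.730). *Mx2* was the least abundant member per length, with 17.6, 2.0 and 15.6 CPM against 14.9, 13.9 and 41.6 CPM. The value of F4/80high replicate 2 stood far below the other 5 libraries, and the fit of all biotypes gave a log2 fold change of -0.82 (SE 0.64, edgeR adjusted p = 0.835).

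ISG15 is a ubiquitin-like protein that is attached to other proteins, *Herc6* and *Trim25* encode ligases that can attach it, and *Usp18* encodes the protease that removes it and damps receptor signaling. *Trim30a* encodes a ubiquitin ligase that restrains NF-kB signaling. All 5 had a log2 fold change below 0, between -0.62 and -0.35. *Trim25* measured 153, 114 and 197 CPM in F4/80high and 240, 145 and 348 CPM in F4/80low TAMs. It was lower in each pair, by a log2 difference of -0.65, -0.35 and -0.82, and the groups overlapped (log2 fold change -0.62, SE 0.26, edgeR adjusted p = 0.639). *Isg15* itself measured 130, 34.97 and 41.2 CPM in F4/80high and 116, 99.8 and 73.5 CPM in F4/80low TAMs. Pairs 2 and 3 were lower in F4/80high TAMs, by a log2 difference of -1.51 and -0.83, and pair 1 was higher by 0.17. *Trim30a*, the most abundant of the group per length in batch 2 but not in batch 1, had 165, 69.7 and 2010 CPM against 163, 124 and 2780 CPM (log2 fold change -0.35, SE 0.32, edgeR adjusted p = 0.807), with both batch 2 libraries far above the rest.

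The enzymes that act on nucleotides or RNA were *Rsad2*, which encodes viperin and makes a chain-terminating nucleotide, its neighbor *Cmpk2*, a mitochondrial nucleotide kinase that supplies viperin, and *Isg20*, an exonuclease. *Rsad2* and *Cmpk2* lie next to each other on opposite strands (chr12:26442746-26479837, GRCm38). *Rsad2* had the lowest adjusted p of the 39 tested members in the edgeR and DESeq2 fits with batch, with 214, 116 and 623 CPM in F4/80high and 266, 220 and 1420 CPM in F4/80low TAMs. It was lower in each pair, by a log2 difference of -0.31, -0.92 and -1.19 (log2 fold change -0.77, SE 0.29, edgeR adjusted p = 0.598). With the block its adjusted p was 0.190 in edgeR and 0.0260 in DESeq2, at a log2 fold change within 1 in size, and *Ifitm1* and *Oas2* had lower ones in both. Its single ISRE match is in the window shown above. *Cmpk2* measured 75.5, 36.3 and 66.2 CPM in F4/80high and 86.9, 79.6 and 136 CPM in F4/80low TAMs, without overlap of the groups, and no match to the ISRE core was found in its promoter (log2 fold change -0.73, SE 0.30, edgeR adjusted p = 0.630). *Isg20* had a log2 fold change of -0.55 and was higher in F4/80high TAMs in pair 1.

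The IFITM proteins block the fusion of viruses with cell membranes and tetherin, encoded by *Bst2*, ties budding particles to the cell. This group was the least uniform. *Ifitm1* had the largest difference of all members in the fit with batch, with 158, 30.6 and 58.7 CPM in F4/80high and 310, 118 and 125 CPM in F4/80low TAMs. It was lower in each pair, by a log2 difference of -0.98, -1.95 and -1.09 (log2 fold change -1.15, SE 0.55, edgeR adjusted p = 0.683). Its log2 fold change was -2.05 without F4/80high replicate 1, and with replicate 2 of that subset left out it was -0.74. Leaving out F4/80low replicate 1 gave -0.66, and among the 18 members picked for full values *Rsad2* then had the largest difference (-0.75). With the block the log2 fold change of *Ifitm1* was -1.34, with an adjusted p of 0.0569 in edgeR and 3.04e-05 in DESeq2. *Ifitm3* measured 368, 220 and 315 CPM in F4/80high and 416, 430 and 533 CPM in F4/80low TAMs, with no overlap (log2 fold change -0.60, SE 0.25, edgeR adjusted p = 0.636). *Ifitm2*, beside them on chromosome 7, had 407, 446 and 148 CPM against 522, 419 and 161 CPM, with pairs on both sides of 0 (log2 fold change -0.14, SE 0.21, edgeR adjusted p = 0.910), and 40.9% of its exon bases also belong to the transcript *Gm45717* on the same strand. *Bst2* measured 158, 121 and 98.8 CPM in F4/80high and 90.4, 152 and 107 CPM in F4/80low TAMs. It was higher in F4/80high TAMs in pair 1 only, and the fit gave a log2 fold change of 0.10 (SE 0.26, edgeR adjusted p = 0.953).

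*Parp9* and *Dtx3l* encode the subunits of a complex that modifies histones, and *Parp14* encodes another ADP-ribosyltransferase. *Parp14* measured 62.9, 52.1 and 450 CPM in F4/80high and 75.4, 53.8 and 1020 CPM in F4/80low TAMs, so nearly all of its difference came from pair 3 (log2 fold change -0.50, SE 0.28, edgeR adjusted p = 0.699). *Parp9* had 91.2, 54.7 and 318 CPM against 83.6, 55.1 and 524 CPM (log2 fold change -0.19, SE 0.30, edgeR adjusted p = 0.910), and without either library of replicate 3 the log2 fold change was 0.07. *Parp9* and *Dtx3l* lie on opposite strands with starts 681 bases apart, each start inside the other gene, and 458 bases of their exons overlap, so reads there cannot be assigned if strand was not used.

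The Schlafen proteins, of which SLFN5 and SLFN8 were listed, and SAMD9L restrict translation or replication. All 3 members were lower in F4/80high TAMs in all 3 pairs. *Slfn5* measured 70.7, 33.3 and 76.4 CPM in F4/80high and 102, 50.9 and 184 CPM in F4/80low TAMs (log2 fold change -0.79, SE 0.37, edgeR adjusted p = 0.681). Its F4/80high levels were below their partners in every experiment, yet F4/80low replicate 2 lay below 2 F4/80high libraries. *Samd9l*, the most abundant of the 3 per length, had 88.5, 62.3 and 214 CPM against 121, 82.5 and 226 CPM (log2 fold change -0.31, SE 0.25, edgeR adjusted p = 0.786).

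Of the 6 other effectors, 5 had a log2 fold change below 0 and only *Sp100*, a nuclear body protein, was lower in all 3 pairs. *Ifi35* measured 59.7, 32.8 and 15.6 CPM in F4/80high and 54.3, 67.6 and 22.2 CPM in F4/80low TAMs (log2 fold change -0.44, SE 0.28, edgeR adjusted p = 0.721). *Rtp4*, the most abundant per length, had 133, 50.5 and 156 CPM against 114, 100.1 and 211 CPM (log2 fold change -0.29, SE 0.33, edgeR adjusted p = 0.861). *Xaf1*, which encodes a promoter of cell death, and *Epsti1* were both higher in F4/80high TAMs in pair 1 and lower in pairs 2 and 3. *Ifi44*, singled out after its values were seen, was the only member higher in F4/80high TAMs in all 3 pairs. It measured 42.5, 16.2 and 682 CPM in F4/80high and 24.02, 15.9 and 574 CPM in F4/80low TAMs, nearly equal in pair 2 (log2 fold change 0.45, SE 0.35, edgeR adjusted p = 0.775).

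Levels were compared between genes per kilobase of gene length. Over the 6 libraries, *Ifitm3* and *Ifitm2* were the most abundant members, at 561 and 559 CPM per kilobase, followed by *Trim30a* at 201, through batch 2 alone, and *Bst2* at 159. The least abundant were *Mx2* at 4.87, *Xaf1* at 10.3 and *Oas3* at 12.5 CPM per kilobase. This order held only in part across batches. *Ifitm2* ranked 1 of 40 in batch 1, at 715 CPM per kilobase, and 3 in batch 2, at 246. *Xaf1* and *Oas3* ranked 32 and 34 in batch 1, and 39 and 37 in batch 2. *Trim30a* ranked 16 of 40 in batch 1, at 29.6 CPM per kilobase, and 2 in batch 2, at 542. *Isg15* ranked 5 in batch 1, at 126 CPM per kilobase, and 19 in batch 2, at 75.8. *Ifi44* ranked 39 in batch 1, at 4.02, and 11 in batch 2, at 102 CPM per kilobase.

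**Figure D4:**
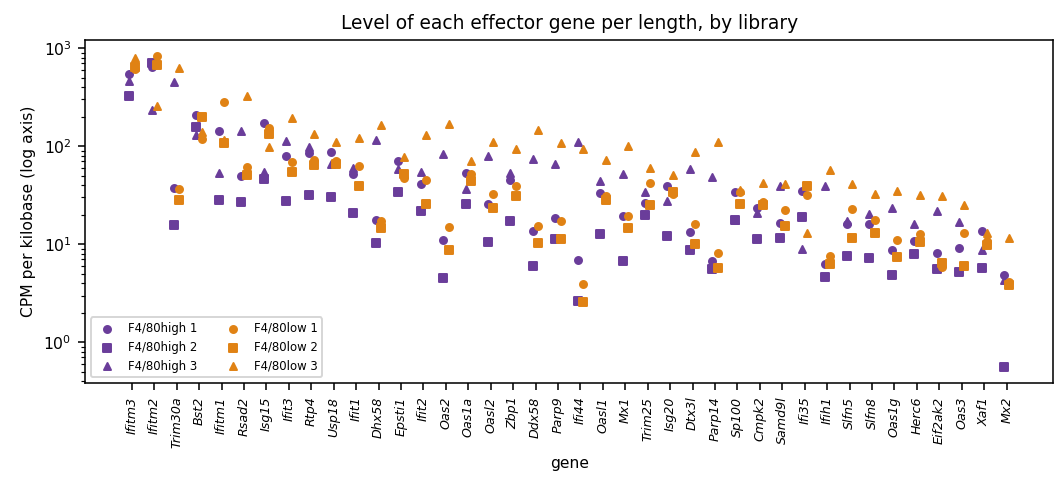
Level of each effector gene in CPM per kilobase of gene length on a log axis, for each of the 6 libraries, with genes in order of their mean. Purple points are F4/80high and orange points F4/80low libraries, and circles, squares and triangles are replicates 1, 2 and 3. *Ifitm3* and *Ifitm2* stand at the top and *Mx2* at the bottom, and the triangles lie above the other points in genes such as *Trim30a* and *Ifi44*.

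The members also differed between batches. In the same fit, the batch term was called for 23 of the 39 members, 21 of them higher and 2 lower in batch 2, where 17.9% of all genes were called higher and 20.2% lower. The median log2 difference of batch 2 from batch 1 was 1.12 over the members and -0.35 over all genes. With library size as the only scaling, these medians were 0.08 and -1.37, and 12 members were called higher and 6 lower where 49.5% of all genes were called in either direction (38.0% with TMM). The distance of the members' median from that of all genes was 1.47 and 1.45 under these scalings. The difference was larger in longer genes. Members under 2000 bases had a median of 0.22, those of 2000 to 4000 bases 1.12, and those of 4000 bases or more 2.06, while the medians of all genes were -1.26, -0.71 and 0.32. Spearman's rho with length was 0.63 over the 39 members and 0.38 over all genes, given as a description across genes, which share libraries. The subset difference had a rho of -0.02 with length over the members. In batch 2, 3 features (*Lars2*, *Gm23935* and *Gm15564*) held 17.1% and 16.1% of the counts, against 0.378% to 0.609% in batch 1. The part of these in the levels of the members was not tested.

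**Figure D5:**
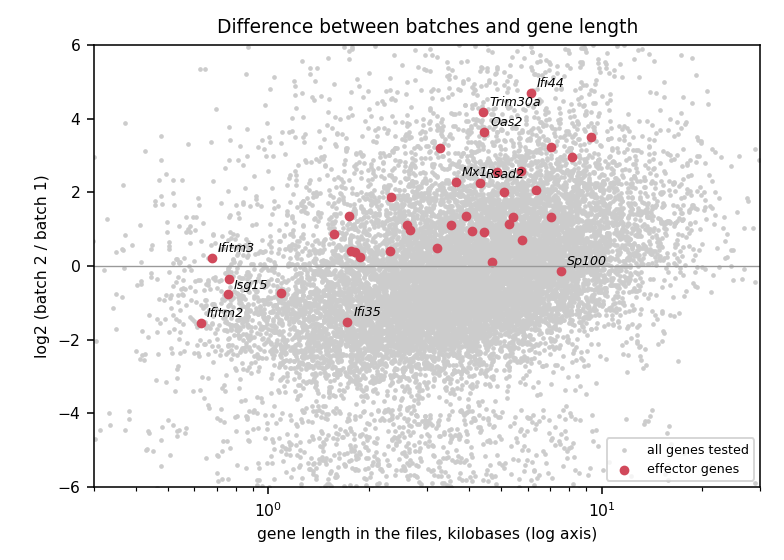
Log2 difference of batch 2 from batch 1 against gene length in kilobases on a log axis, for the 39 tested effector genes (red) and all genes tested (gray, with 378 genes outside the axes). The red points rise from *Ifitm2* and *Isg15* at the short end to *Ifi44*, *Oas2* and *Trim30a*, and *Sp100* and *Ifi35* lie below most of the members of like length.

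Along the pathway itself, few ligand transcripts were counted. Of 20 type I and III interferon genes listed, 2 were in the tables. *Ifnb1* measured 0.959, 0.894 and 0.216 CPM in F4/80high and 0.552, 0.910 and 0.342 CPM in F4/80low TAMs, that is 22 to 46 counts in the libraries of batch 1 and 2 and 3 counts in those of batch 2. *Ifnk* had counts in only 1 library of each subset. Downstream of the receptor, *Stat2* had a log2 fold change of -0.55 (SE 0.27, edgeR adjusted p = 0.687) and *Irf9* one of -0.30, and both are themselves raised by interferon. The receptor chains *Ifnar1* and *Ifnar2* had 0.35 and 0.24. *Ifnar1* measured 145, 181 and 122 CPM in F4/80high and 145, 100.4 and 105 CPM in F4/80low TAMs.

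The 6 interferon regulatory factors had a median of -0.36, with none past an unadjusted p under 0.05. *Irf5*, *Irf2* and *Irf1* had -0.37, -0.35 and -0.43, while *Irf8*, a lineage factor of monocytes and dendritic cells, had 0.29 and *Irf3* 0.06. *Irf7*, the factor that drives interferon-alpha genes, measured 516, 171 and 240 CPM in F4/80high and 447, 423 and 368 CPM in F4/80low TAMs, with F4/80high replicate 2 the lowest of the 6, as for most members. Of the genes that sense nucleic acids upstream of interferon, 5 of 12 tested were below 0, with a median of 0.04. The adaptor gene *Myd88* had -0.47, *Ifi204* -0.46 and *Tlr9* -0.42, and *Ikbke*, *Tmem173* (STING) and *Unc93b1* had 0.52, 0.31 and 0.29. The 6 feedback inhibitors had a median of -0.04, with *Ptpn2* at -0.17, *Ptpn6* at -0.14, *Socs1* at -0.05, *Socs3* at 0.22 and *Pias1* at 0.01.

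Interferon-gamma acts through a receptor of its own. *Ifng* measured 74.9, 19.9 and 2.81 CPM in F4/80high and 19.8, 33.3 and 0.570 CPM in F4/80low TAMs, above its partner in F4/80high replicates 1 and 3 and below it in replicate 2 (log2 fold change 1.11, SE 0.52, edgeR adjusted p = 0.683). Of 18 genes used mainly as targets of interferon-gamma, 15 had a log2 fold change below 0, with a median of -0.34 and none past an unadjusted p under 0.05. Those with the smallest p were *Gbp2* at -0.61, *Ciita* at -0.59 and *Cxcl10* at -0.56 on the lower side, and *Iigp1* at 0.45, *Cxcl9* at 0.57 and *Gbp4* at 0.23 on the higher side. In pair 1, 8 of the 18 were lower, with a median of 0.06, and in pairs 2 and 3, 15 and 14 were, with medians of -0.68 and -0.48. Both *Irf1* and *Socs1* are also in the lists above.

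Close relatives of the members that are not in the set included a pair of genes, *Ifitm6* and *Trim30b*, with a larger difference than any member in the fit with batch. Of 17 tested paralogs, 14 had a log2 fold change below 0, with a median of -0.39, and 3 had an unadjusted p under 0.05. *Ifitm6* measured 27.7, 13.2 and 19.4 CPM in F4/80high and 70.1, 48.0 and 69.9 CPM in F4/80low TAMs, without overlap (log2 fold change -1.64, SE 0.33, edgeR adjusted p = 0.434). DESeq2 with batch called *Ifitm6* (log2 fold change -1.64, adjusted p = 0.00183) but not *Trim30b* (-1.22, adjusted p = 0.0712). *Trim30b* measured 29.9, 14.2 and 427 CPM against 76.5, 37.3 and 800 CPM (log2 fold change -1.21, SE 0.36, edgeR adjusted p = 0.504). With the block, where *Trim30b* was at -1.22 and the member *Ifitm1* at -1.34, both fell in F4/80high TAMs, with an edgeR adjusted p of 0.0304 for *Ifitm6* and 0.0435 for *Trim30b*. *Ifitm5* had -1.06, and most of its CPM came from batch 2. On the higher side *Ifitm10* had 0.80, *Slfn9* 0.18 and *Oas1c* 0.19.

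Of 33 tested interferon-induced genes of other kinds, 25 had a log2 fold change below 0, with a median of -0.19, and in pair 1 only 10 were lower, with a median of 0.18. *Samhd1*, which encodes an enzyme that depletes nucleotides, measured 475, 263 and 520 CPM in F4/80high and 754, 713 and 998 CPM in F4/80low TAMs, without overlap (log2 fold change -0.98, SE 0.26, edgeR adjusted p = 0.466). DESeq2 gave it an adjusted p of 0.0327 with batch, and with the block it was called, at -1.01 with an adjusted p of 0.000635, as was *Ifi205*, at -1.07 with an adjusted p of 0.0299. *Tdrd7* had -0.60 and *Ifi205* -0.87, and *Pnpt1*, a mitochondrial ribonuclease, had 0.52, with *Cd69* at 0.33 and *Trim34a* at 0.18. Of these, *Samhd1*, *Tdrd7* and *Pnpt1* had an unadjusted p under 0.05.

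Markers of macrophages and of other cells were examined in the same libraries. In edgeR with batch none of them was called, and an unadjusted p under 0.05 was reached by 4.32% of all genes in the lower and 3.28% in the higher direction. Of 7 monocyte markers, 6 had a log2 fold change below 0 and 5 of those an unadjusted p under 0.05, with a median of -1.0 and *F13a1* as the exception. Their summed level was 2230, 2930 and 4080 CPM in F4/80high and 3650, 2810 and 7960 CPM in F4/80low replicates 1, 2 and 3, with *Ccr2* the most abundant. *Ly6c2*, the inflammatory monocyte marker, measured 374, 143 and 1230 CPM against 278, 479 and 1860 CPM. Its lowest library was F4/80high replicate 2 and its highest F4/80low replicate 3, while the summed list was lowest in F4/80high replicate 1. The sums of the mast cell and basophil, fibroblast and endothelial cell lists were also lowest and highest in those libraries of *Ly6c2*. All 10 neutrophil markers had a log2 fold change below 0 (median -1.16, 7 with an unadjusted p under 0.05), with sums of 2030, 878 and 727 CPM against 4550, 3020 and 1460 CPM and *Retnlg* the most abundant. All 6 eosinophil markers did too (median -1.50, 5 with such a p), with sums of 521, 263 and 173 CPM against 1090, 1490 and 380 CPM and *Alox15* the most abundant. The 8 dendritic cell markers had a median of -0.82, with sums of 354, 100.3 and 115 CPM against 657, 197 and 186 CPM and *Ccr7* the most abundant, and the 6 mast cell and basophil markers a median of -1.10, with sums of 48.3, 2.70 and 94.8 CPM against 72.2, 15.4 and 396 CPM and *Kit* the most abundant. Plasmacytoid dendritic cells can make large amounts of type I interferon, and the source of interferon in these tumors was not tested. Their 9 markers had a median of 0.08 and sums of 192, 163 and 455 CPM against 133, 179 and 513 CPM, mostly of *Tcf4*, while *Siglech* measured 16.6, 1.22 and 4.32 CPM against 7.38, 7.74 and 2.17 CPM. All 8 tested T and NK cell markers had a log2 fold change above 0 (median 0.80, 2 with an unadjusted p under 0.05). The T and NK cell list had sums of 1660, 493 and 289 CPM against 584, 764 and 145 CPM, highest in F4/80high replicate 1. *Gzmb* was its most abundant marker. The 8 macrophage markers had a median of 0.35, with 1 of them (*Mertk*, higher in F4/80high TAMs) past an unadjusted p under 0.05, and summed to 8180, 23200 and 4300 CPM against 11000, 10900 and 5170 CPM, mostly of *Lyz2*, with F4/80high replicate 2 the highest. With the replicate block, where edgeR called 0 members and 0.519% of all genes, it called 5 neutrophil, 2 monocyte and 1 dendritic cell marker as lower and *Mertk* as higher, with lowest adjusted p of 0.0317, 0.0253, 0.0363 and 0.0381. DESeq2 with batch, which called 0 members and 1.01% of all genes, called 4 neutrophil, 4 eosinophil and 2 monocyte markers as lower and *Mertk* as higher. In none of these lists was a marker at or under 3 counts in every library. The remaining 6 lists had medians from -0.77 for erythroid cells to 0.61 for keratinocytes. The lineage gate of the sort should remove lymphocytes, and its antibodies are not listed for this sort, while the flow cytometry panel of the study held antibodies to B220 (also carried by plasmacytoid dendritic cells), CD3e, NK1.1 and the neutrophil protein Ly6G. The part of these cells in the levels of the effector genes was not tested.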

How the data were processed

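The authors deposited raw read counts per gene, with gene length and biotype, for 6 libraries, as their sequencing center's standard workflow gives them. How reads were aligned and counted, the strand setting and the genome build are not given in the sources used here. Gene IDs matched GENCODE M21 (GRCm38) for 99.4% of 23424 genes. The members and all lists were chosen with earlier results of these data known, so their counts are descriptions. Protein-coding genes by M21 with 10 or more counts in total (14645) were fitted with edgeR 4.0.16 in R 4.3.3 (quasi-likelihood test, TMM, terms for batch and subset). A gene was called where the Benjamini-Hochberg adjusted p over all genes was under 0.05 and the log2 fold change beyond 1 in size. CPM are per TMM-scaled library of tested genes, and pair differences are of log2 CPM with a prior count of 2. TMM factors for F4/80high replicates 1, 2 and 3 were 1.34, 1.21 and 0.646, and those of the F4/80low libraries 1.23, 1.29 and 0.601. The floor, 3 counts, ranged from 0.0583 to 0.0757 CPM in batch 1 and was 0.324 and 0.342 CPM in batch 2, for counting error only. Values were given for the member of each role with the smallest p and with the highest level per length, for members called, for the 5 largest differences with 1 direction in 3 pairs, and for up to 3 genes with the smallest p per direction of each further list. Members outside that rule were named after their values were seen. The summary of the list of receptor and ISGF3 genes is not reported here. DESeq2 1.42.0, other scalings and filters, no batch term, the replicate block and leaving out libraries were alternatives. Every pair of libraries differed by more than sampling noise (chi-square per degree of freedom from 64.5 to 1850 over 15 pairs). The study states 3 independent experiments, so equal replicate numbers were taken as pairs, though the labels give only the number. By the same chi-square, F4/80high replicate 1 was closer to F4/80low replicate 2 (89.2) than to its partner (139). F4/80high replicate 2 was closer to its partner (284) than to F4/80low replicate 1 (494). Over 10072 genes, the deviations of both libraries of pairs 1, 2 and 3 from their subset means had correlations of 0.745, 0.729 and 0.907. These means span both batches, so libraries of replicates 1 and 2 also correlated across numbers (0.633 and 0.612). Within batch 1, the differences of replicate 1 from replicate 2 in the subsets had a correlation of 0.242. With 3 libraries against 3, an exact permutation test cannot give a p below 0.1, and none was run.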

Additional observations from a re-analysis of the deposited data

How the results depend on the processing

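Under 18 alternatives, 34 to 39 of the members tested had a log2 fold change below 0 (38 of 40 with all biotypes). DESeq2 with the replicate block called 1 member, *Ifitm1* (log2 fold change -1.34), and no other alternative called any, though the calls over all genes were 0 with edgeR and batch, 76 with the replicate block, 27 with the block and all biotypes (chosen after seeing the data), 148 and 354 with DESeq2 with batch and with the block, and 77 without F4/80high replicate 1. Members with an unadjusted p under 0.05 numbered 4 with edgeR and batch, 7 and 19 with DESeq2 with batch and with the block, 16 with the replicate block, 16 with the block and all biotypes, 1 with library size alone, 0 without the batch term, 0 without replicate 3 of both subsets, and 0 to 29 when 1 library was left out. Over all genes, such a p in the lower direction was reached by 4.32% with edgeR and batch, 5.34% and 7.05% with DESeq2 with batch and with the block, 5.95% with the replicate block, 4.74% with the block and all biotypes, 3.28% with library size alone, 1.12% without the batch term and 2.51% without replicate 3 of both subsets, and by 2.12% to 7.91% when 1 library was left out. The replicate block changed no edgeR call of a member. The median log2 fold change of the members ran from -0.87 to -0.27 when 1 library was left out, and moved by less than the spread between pairs (SD 0.37) under the others. Members with a batch difference numbered 17 to 27 under the alternatives, where 24.9% to 49.5% of all genes were called, and the lowest number, 17, was found without F4/80high or F4/80low replicate 3 (25.4% and 24.9% of all genes). The log2 fold change of *Parp9* ran from -0.5 to 0.07 when 1 library was left out. It was above 0 without either library of replicate 3, and 0.08 without both. For the subset difference, these 3 fits compare the same libraries of batch 1. Of 324 values of 18 named members under the alternatives, 320 kept direction and side of the threshold. Most alternatives called no gene at all, and edgeR with batch called no member, so keeping that side was largely fixed in advance. Still, 14 of the 18 members moved by over 1.5 times when 1 library was left out. Of these, 12 moved without F4/80high replicate 1, 10 without F4/80high replicate 2 and 5 without either library of replicate 3. The numbers were 3 and 1 when F4/80low replicates 1 and 2 were dropped in turn. Causes were not tested. Depth was not limiting for the members, while *Ifnb1* lay near 3 counts in batch 2.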

Other observations

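Some members share sequence with other genes, and how reads there were assigned is not given in the sources used here. Of the 75-base runs of *Herc6*, 22.4% also occur in *Gm45193*, and of those of *Rtp4*, 12.4% occur in *Gm45338*, each a transcript on the same strand. Exons of *Gm11626* on the opposite strand cover 16.8% of the exon bases of *Ifi35*, and those of *Slfn5os* cover 8.84% of *Slfn5*. By contrast, no 75-base run of *Isg15*, *Rsad2*, *Cmpk2*, *Ddx58* or *Ifi44* was found in another gene.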
